A study of Homo sapiens with 8 samples.

Results

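MET, its relative RON (gene MST1R), their ligands HGF and MST1, the activating proteases HGFAC, ST14 and HPN, and the inhibitors SPINT1 and SPINT2 were followed across both cell lines. These 9 genes were taken by name, with earlier results of these data known. They are read by 31 of the 49386 probe sets on the array, as 9 of 18239 genes with a probe set of their own, and 2 further probe sets read MST1 together with its copies MST1L and MST1P2. Total RNA was measured on 8 Affymetrix arrays of human breast cancer cells selected for growth in the brain. The lines are labelled 231BrM and SKBrM3, and every group, controls included, has a short hairpin targeting MET whose expression doxycycline turns on. The 4 groups of 2 arrays are 231BrM without doxycycline, 231BrM with doxycycline, SKBrM3 without doxycycline and SKBrM3 with doxycycline (48 h; the stated amount, 100 ng, comes without a volume). No group received doxycycline without the hairpin, so the effects of drug and hairpin cannot be told apart. Values are log2 signals after RMA. A probe set passed the filter on low signal when 2 or more arrays exceeded 4.41, which is the 40th percentile of the table, and 17 of the 31 did.

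The labelled identity of the SKBrM3 arrays was checked first. SK-BR-3, the line that name points to, is known as an ERBB2-amplified luminal line, and MDA-MB-231 as a mesenchymal line without that amplification. ERBB2 read 6.70 and 6.72 on the SKBrM3 control arrays and 6.87 and 6.76 on the 231BrM controls, so the SKBrM3 arrays were not above the others. The luminal keratins KRT8 and KRT18 were lower in SKBrM3 than in 231BrM controls, by 1.07 and 0.63 log2 units (limma adjusted p = 0.0142 and 0.00027). Other markers went the opposite way: the luminal factor FOXA1 was higher in SKBrM3 controls (6.39 and 6.38 against 5.03 and 5.01; 231BrM minus SKBrM3 -1.37, limma adjusted p = 0.000282). So were MIEN1 and PGAP3, neighbours of ERBB2 (231BrM minus SKBrM3 -0.73 and -0.31, limma adjusted p = 0.000529 and 0.0368; other PGAP3 probe sets -0.09 to 0.07), while the neighbours GRB7 and STARD3 gave -0.06 and -0.07 and were not called. The mesenchymal genes VIM and ZEB1 had SKBrM3 control means of 12.75 and 8.92 against 12.89 and 8.74 in 231BrM, and neither difference passed the test (limma adjusted p = 0.189 and 0.301). CDH1, the epithelial adhesion gene, stayed at or under 4.14 on all 8 arrays, which is under the filter level, and so did not separate the lines. AXL, another mesenchymal gene, had control means of 11.33 in SKBrM3 and 11.52 in 231BrM. ESRP1 and TFAP2B, listed as SK-BR-3 markers, stayed under the filter level on all 8 arrays. The markers thus did not all go one way. The SKBrM3 arrays lacked a raised ERBB2 signal and held high VIM and AXL, while FOXA1, MIEN1 and PGAP3 were higher there. Of 15 measured MDA-MB-231 markers, 8 were higher in 231BrM and 7 were not called. The identity of the line was not tested further, and SKBrM3 is used below as the label of these arrays. On 1 array, 231BrM doxycycline replicate 1, actin control probes at the 3' end exceeded those at the 5' end by 1.24. The other 7 arrays gave 0.46 to 0.59. Doxycycline changes of MET, HPN, SPINT1 and SPINT2 in 231BrM, and calls within the lists around MET, are also given without that replicate.

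MET is the cell-surface receptor of hepatocyte growth factor, and RON is its closest relative and the receptor of macrophage-stimulating protein, the product of MST1. Both ligands are secreted as inactive single chains and gain activity when a serine protease cuts them. HGFAC is a plasma protease made mainly by liver, while matriptase (ST14) and hepsin (HPN) sit in the membrane of epithelial cells and hepatocytes. The membrane-anchored Kunitz inhibitors HAI-1 (SPINT1) and HAI-2 (SPINT2) block these proteases. HGF is usually made by stromal cells and acts on neighbouring epithelial or tumour cells.

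MET, the target of the hairpin, fell in both lines and its doxycycline arrays lay well under the controls. In the probe set with the highest mean it read 9.45 and 9.26 in 231BrM controls and 5.85 and 5.35 with doxycycline. In the line labelled SKBrM3 it read 9.25 and 9.20 in controls and 5.76 and 5.71 with doxycycline. Control and doxycycline arrays did not overlap in either line, whereas the doxycycline arrays of the lines overlapped each other, and the 231BrM controls lay just above those of the other line. In bulk RNA, fewer cells with the transcript and less of it per cell cannot be told apart. The log2 change was -3.76 in 231BrM (standard error 0.148, 95% interval -4.09 to -3.42, limma adjusted p = 2.83e-05), a 13.5-fold fall with 2 arrays per group. In the SKBrM3 arrays it was -3.50 (standard error 0.148, 95% interval -3.83 to -3.16, limma adjusted p = 1.3e-05), an 11.3-fold fall. Of all 13002 genes tested, 0.162% were called lower in 231BrM and 2.28% in SKBrM3 at an adjusted p under 0.05, and MET was the 1 member called among the 7 that pass the filter. The change of the SKBrM3 arrays minus that of 231BrM was 0.26 log2 units with a 95% interval from -0.21 to 0.74 (limma adjusted p = 0.673), so an unequal fall was not detected with 2 arrays per group. Without 231BrM doxycycline replicate 1 the change in 231BrM was -4.01, and without replicate 2 it was -3.51. Over the fits that leave out 1 array, the SKBrM3 change minus the 231BrM change ran from 0.01 to 0.51. It was largest without 231BrM doxycycline replicate 1.

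**Figure D1:**
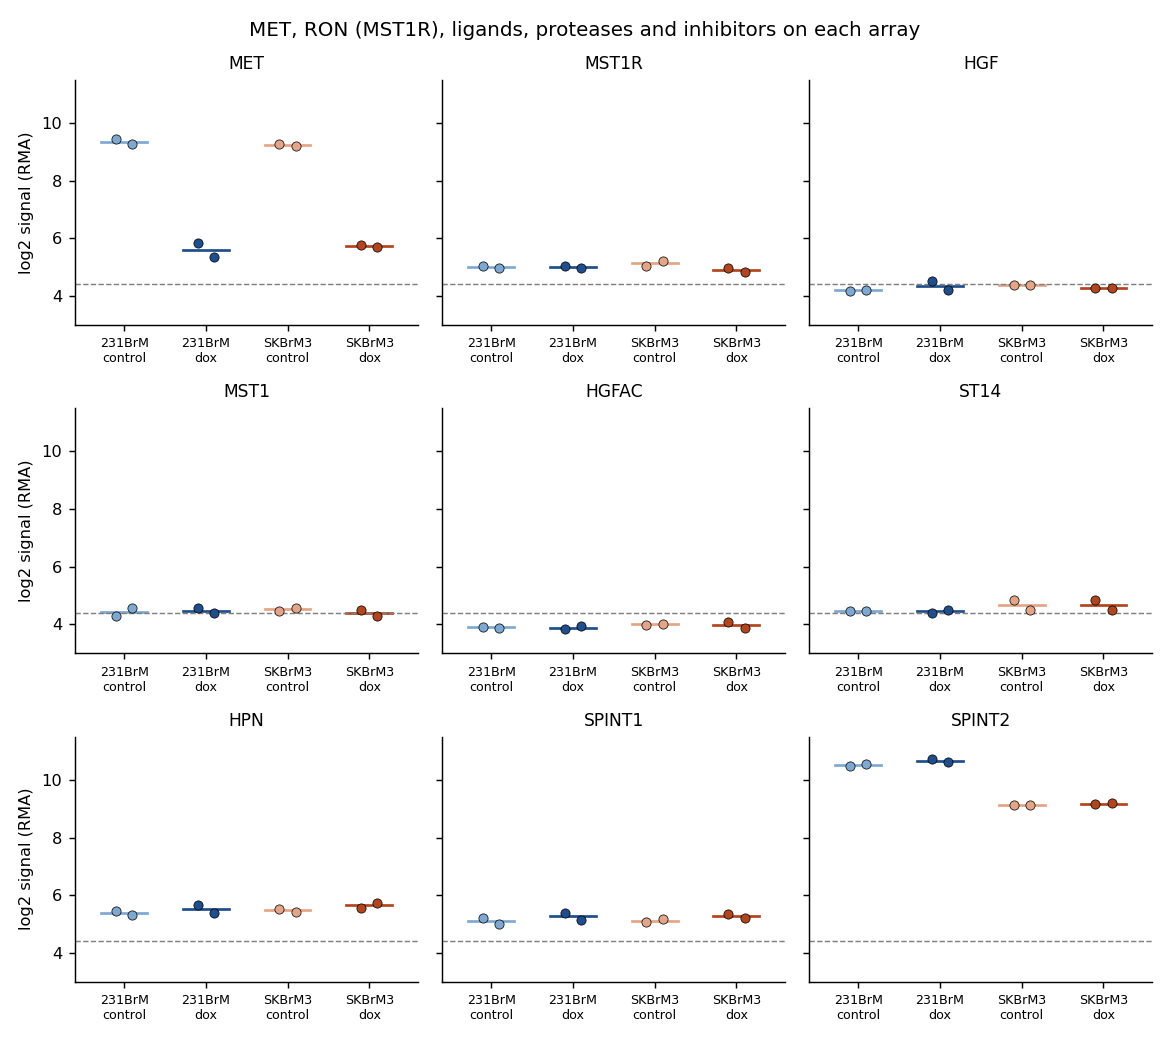
Log2 RMA signal (vertical axis) of the probe set with the highest mean for each of the 9 genes, by group (horizontal axis); points are single arrays, bars are group means of 2 arrays and the dashed line is the filter level of 4.41. MET drops with doxycycline in both lines, SPINT2 separates the lines, and the other 7 genes stay between 3.83 and 5.73 on every array.

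The size of the MET fall depended on the probe set. All 4 MET probe sets that pass the filter were called lower in both lines when every probe set was fitted, where 0.0658% of 28860 probe sets were called lower in 231BrM and 1.16% in SKBrM3. The second, by mean signal, read 8.89 and 8.55 in 231BrM controls against 5.92 and 6.01 with doxycycline, and 8.77 and 8.78 in SKBrM3 controls against 6.11 and 5.80. Its log2 changes of -2.75 and -2.82 were thus nearly the same in both lines. The third, whose controls were nearer the filter level, read 5.70 and 5.81 against 4.61 and 4.73 in 231BrM, and 6.44 and 6.33 against 4.58 and 4.86 in SKBrM3. It changed by -1.08 in 231BrM (limma adjusted p over probe sets 0.0405) and by -1.67 in SKBrM3 (0.00176), and the difference between these changes, -0.59, had an unadjusted p of 0.008 and did not pass (limma adjusted p = 0.445). The last of these 4 read 6.11 and 6.02 in 231BrM controls and 6.04 and 6.38 in SKBrM3 controls. With doxycycline its values, 3.63 to 3.75, all lay under the filter level, so its changes of -2.38 and -2.46 are limited by low signal. The remaining pair stayed between 3.48 and 4.15 on all arrays. Fitted with no filter, where 0.0486% of 45253 probe sets were called in 231BrM and 1.1% in SKBrM3, neither passed the test in either line. The smaller of their adjusted p-values was 0.0637, for a change of -0.43 in SKBrM3.

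**Figure D2:**
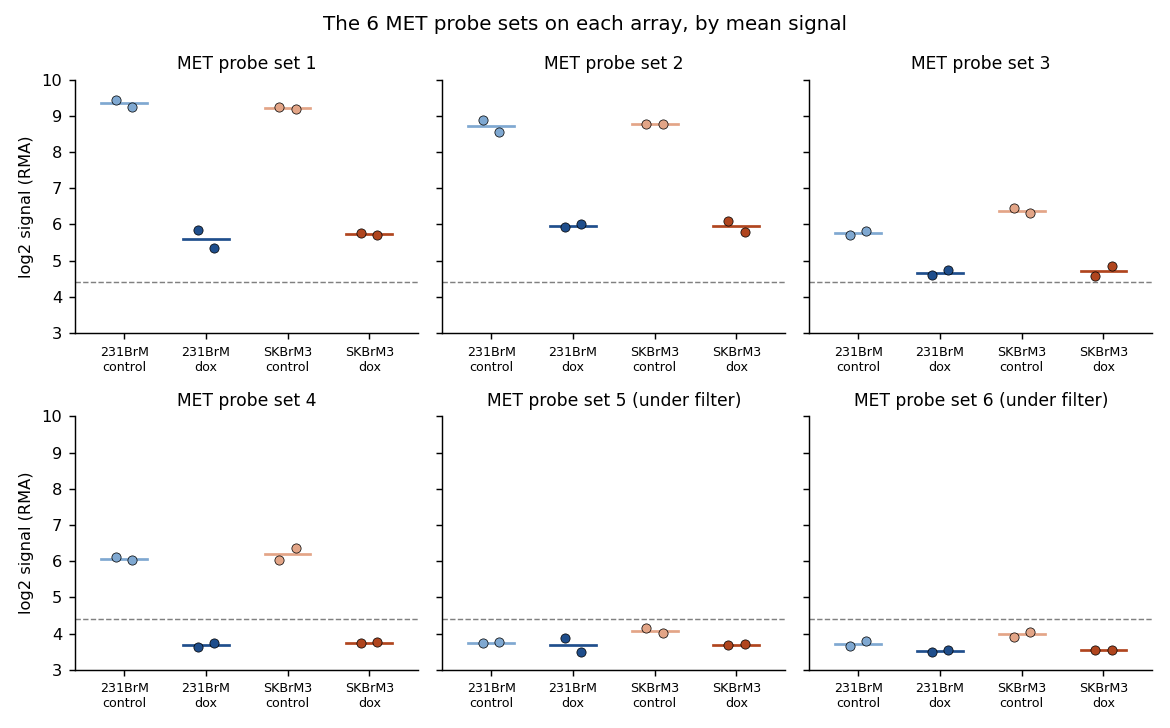
Log2 RMA signal (vertical axis) of each of the 6 MET probe sets by group (horizontal axis), numbered by their mean over the 8 arrays; points are single arrays, bars are means of 2 arrays and the dashed line is the filter level of 4.41. Probe sets 1 to 4 fall with doxycycline in both lines and end between 3.63 and 6.11, while 5 and 6 stay under the filter level throughout.

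Before doxycycline the lines were not told apart by the first MET probe set (231BrM minus SKBrM3 0.13, 95% interval -0.21 to 0.46, limma adjusted p = 0.528). The third probe set was 0.63 lower in 231BrM (limma adjusted p over probe sets 0.0055), with its control arrays not overlapping, beside 33.4% of all probe sets called in this comparison. The second and the last of the 4 gave -0.06 and -0.14 and did not pass. Averaging every MET probe set, the pair under the filter level included, gave -0.22, called by limma at an adjusted p of 0.023. The sign of the line difference thus turns with the way the probe sets are combined.

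RON, the other receptor of the family, kept low signals and did not pass the test in any comparison. Its probe set above the filter read 5.05 and 4.97 in 231BrM controls and 5.04 and 4.96 with doxycycline, which overlap. In SKBrM3 it read 5.05 and 5.23 in controls and 4.97 and 4.84 with doxycycline, which do not. The share of all probe sets without overlap was not counted, so this separation is not read as a change of RON. The log2 change in SKBrM3 was -0.23 (95% interval -0.44 to -0.02), against -0.01 in 231BrM (95% interval -0.22 to 0.20). In SKBrM3 the limma adjusted p was 0.204, although the interval excludes 0. The other 3 MST1R probe sets, all under the filter level on every array, gave 0.13, -0.02 and -0.14 in SKBrM3, so they do not share a direction. Between the lines without doxycycline the difference was -0.13 (95% interval -0.34 to 0.08).

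HGF, the ligand of MET, was near or under the filter level on every array. Its 4 probe sets ranged from 3.48 to 4.53, and none passed the filter. The highest read 4.19 and 4.21 in 231BrM controls, 4.53 and 4.20 with doxycycline, 4.39 and 4.38 in SKBrM3 controls and 4.28 and 4.29 with doxycycline. The single value above the filter level, 4.53, came from the array with the raised 3' signal. Its log2 changes with doxycycline were 0.16 in 231BrM and -0.10 in SKBrM3. In a fit of all 45253 probe sets with no filter, no HGF probe set passed with doxycycline (limma adjusted p-values from 0.473 to 0.955). The second by mean, at 3.53 and 3.62 in 231BrM controls and 3.78 and 3.90 in SKBrM3 controls, was called 0.26 lower in 231BrM (limma adjusted p = 0.0427), where 10.8% of all probe sets were called lower. All of its values lay under the filter level.

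MST1, which encodes the RON ligand, lay around the filter level. Of its 4 probe sets 2 passed, and the one used read 4.31 and 4.56 in 231BrM controls, 4.55 and 4.41 with doxycycline, 4.47 and 4.57 in SKBrM3 controls and 4.51 and 4.28 with doxycycline. All groups overlapped. The changes were 0.05 (95% interval -0.22 to 0.31) in 231BrM and -0.13 (95% interval -0.39 to 0.14) in SKBrM3. Every MST1 probe set is marked by its name as sharing probes with other sequences, and MST1 has near-identical copies, so these values may hold signal of more than MST1. The pair that names the copies too ranged from 3.32 to 4.70.

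The proteases that activate the ligands showed no called change. HGFAC, with a single probe set, read 3.91 and 3.88 in 231BrM controls, 3.83 and 3.95 with doxycycline, 3.99 and 4.03 in SKBrM3 controls and 4.10 and 3.87 with doxycycline, all under the filter level. ST14, which encodes matriptase, read 4.46 and 4.48 in 231BrM controls and 4.40 and 4.50 with doxycycline. In SKBrM3 it read 4.84 and 4.49 in controls and 4.86 and 4.50 with doxycycline, so replicates lay further apart than the groups. Its doxycycline changes were -0.02 (95% interval -0.34 to 0.30) and 0.02 (95% interval -0.30 to 0.34), and 231BrM was 0.19 lower than SKBrM3 without doxycycline (95% interval of the difference -0.51 to 0.13). The other ST14 probe set stayed between 3.77 and 4.19, and its change of 0.27 in 231BrM did not pass (limma adjusted p with no filter 0.658).

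HPN, which encodes hepsin, was above the filter on all arrays in 2 of its 3 probe sets. The one used read 5.45 and 5.33 in 231BrM controls, 5.66 and 5.38 with doxycycline, 5.51 and 5.43 in SKBrM3 controls and 5.56 and 5.73 with doxycycline. The doxycycline arrays lay above the controls in SKBrM3 and overlapped them in 231BrM, with changes of 0.17 (95% interval -0.08 to 0.43) and 0.13 (95% interval -0.13 to 0.38) that did not pass. How many of all probe sets separate in this way was not counted. The 231BrM change was -0.01 without doxycycline replicate 1 of that line. The second HPN probe set gave -0.04 in SKBrM3 and -0.01 in 231BrM. The average over both lines passed only without 231BrM doxycycline replicate 2 (0.22, limma adjusted p = 0.0427), a fit that leaves the array with raised 3' signal alone in its group and calls 15.5% of all genes higher. Hepatocyte markers, tested because HGFAC, HPN and MST1 are liver genes, were low: ALB stayed between 3.77 and 4.27, 3 of 10 markers passed the filter, and 0 of these were called by limma in any comparison. Of 5 measured fibroblast, endothelial, leukocyte and astrocyte markers, COL1A1 was called, higher in 231BrM controls by 0.47, in a comparison where 19.8% of all genes were.

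Of the inhibitors, SPINT2 separated the lines and was not called with doxycycline, and SPINT1 was called in no comparison. SPINT2 read 10.49 and 10.57 in 231BrM controls and 9.14 and 9.15 in SKBrM3 controls. With doxycycline it read 10.74 and 10.61 in 231BrM and 9.16 and 9.19 in SKBrM3, so all 231BrM arrays lay above all SKBrM3 arrays. The difference without doxycycline was 1.39 log2 units, 2.62-fold higher in 231BrM (standard error 0.0794, 95% interval 1.21 to 1.57, limma adjusted p = 5.4e-06), in a comparison where 19.8% of genes were called higher. The other SPINT2 probe set read 9.84 and 9.91 against 8.22 and 8.22 in controls, a difference of 1.66 (limma adjusted p over probe sets 2.36e-05). With doxycycline SPINT2 changed by 0.14 in 231BrM (95% interval -0.04 to 0.32) and by 0.04 in SKBrM3 (95% interval -0.15 to 0.22). Neither passed (limma adjusted p = 0.569 and 0.847), and the 231BrM change was 0.08 without doxycycline replicate 1 of that line.

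SPINT1, the gene of HAI-1, had 5 probe sets above the filter, with values from 4.10 to 5.38. The one used read 5.20 and 4.99 in 231BrM controls, 5.38 and 5.15 with doxycycline, 5.07 and 5.17 in SKBrM3 controls and 5.34 and 5.21 with doxycycline. Its changes were 0.17 in 231BrM (95% interval -0.08 to 0.42) and 0.16 in SKBrM3 (95% interval -0.09 to 0.41). The 231BrM change was 0.06 without doxycycline replicate 1 of that line. In SKBrM3 the probe sets differed in direction: 4 had changes from 0.03 to 0.23, and the fifth read 4.82 and 4.68 in controls against 4.49 and 4.44 with doxycycline, a change of -0.28. That change had an unadjusted p of 0.0146 and did not pass (limma adjusted p over probe sets 0.178). Between the lines SPINT1 differed by -0.02 (95% interval -0.27 to 0.23).

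**Figure D3:**
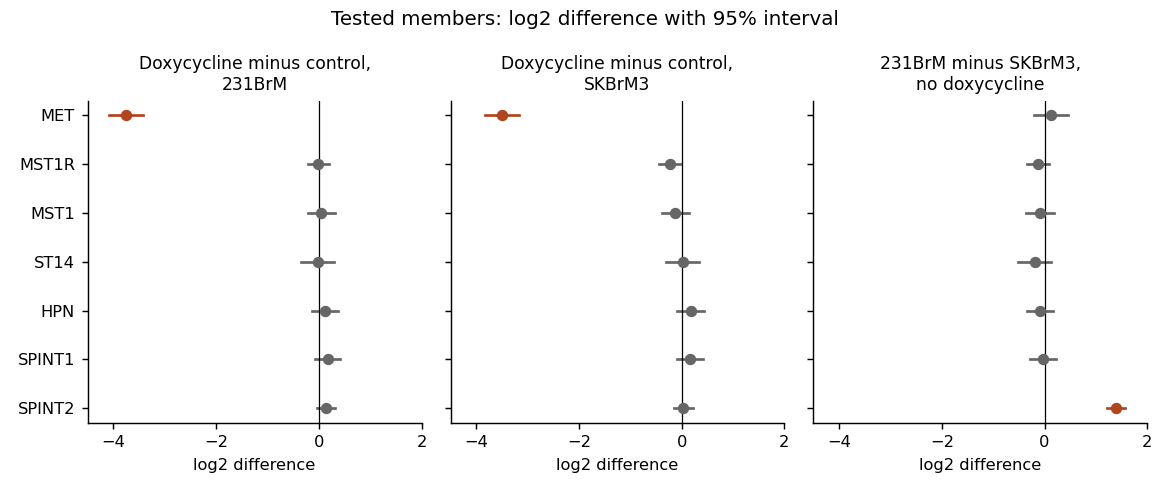
Log2 difference (horizontal axis) with its 95% interval from limma for the 7 genes that pass the filter (vertical axis), for doxycycline in 231BrM, doxycycline in SKBrM3 and the lines without doxycycline; coloured points are called at an adjusted p under 0.05 and grey points are not. MET is called with doxycycline at -3.76 and -3.50, and SPINT2 between the lines at 1.39.

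No member was called for an unequal response in the lines, where 0.0231% of genes were called. The differences of change, SKBrM3 minus 231BrM, ran from -0.22 for MST1R (95% interval -0.52 to 0.07) to 0.26 for MET. Of the 31 probe sets fitted with no filter none was called, as was none of all 45253 (0%), so this says nothing particular to the members. Both HGF and MST1 had probe sets that lay above controls in 231BrM and below them in SKBrM3, all of them under the filter level. The widest of these differences was -0.29, with an adjusted p of 0.455 for HGF and 0.555 for MST1. The share of all 45253 probe sets that split by line in this way was not counted. The split is therefore not read as a result about the ligands.

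Other genes around MET were taken from lists. Of 20 measured MET signalling components, 0 were called by limma with doxycycline in 231BrM, where 0.162% of all genes were called (median log2 change -0.06, against 0.05 for all genes). In SKBrM3 1 was called, the kinase SRC, which rose by 0.36 (limma adjusted p = 0.0478; list median 0.01, all genes 0.01), beside 1.15% of all genes called higher and 2.28% lower. The other SRC probe set gave 0.21 and was not called. SRC read 7.29 and 7.17 in SKBrM3 controls and 7.64 and 7.55 with doxycycline, while in 231BrM it read 7.04 and 6.99 against 6.76 and 6.77. The difference of these changes, 0.61, did not pass (limma adjusted p = 0.196). Without 231BrM doxycycline replicate 1, calls rose over the whole array, to 6.41% of genes higher and 6.14% lower in SKBrM3. In that fit the list had 2 higher (GAB1 and SRC) and 1 lower (PTPN11).

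Of 15 measured co-receptors and partners of MET, SDC4, a heparan sulphate proteoglycan of the cell surface, fell in SKBrM3 by 0.96 (limma adjusted p = 0.00169), and 14 were not called (list median 0.05). SDC4 read 10.16 and 10.30 in SKBrM3 controls and 9.25 and 9.30 with doxycycline. In 231BrM it read 10.51 and 10.54 against 9.78 and 9.99, a change of -0.63 that missed the threshold with all arrays (limma adjusted p = 0.0587). Averaged over both lines SDC4 fell by 0.79 and the adhesion molecule ICAM1 by 0.66 (limma adjusted p = 0.000631 and 0.00801), where 2.07% of genes were called lower. Other probe sets gave averages of -1.33 and -0.78 for SDC4 and -0.65 and -0.57 for ICAM1. Without 231BrM doxycycline replicate 1 both were called in 231BrM as well (-0.53 and -0.96), from the 1 doxycycline array left and beside 0.6% of genes called lower. In SKBrM3 that fit, with its 6.41% and 6.14% of all genes, called 2 higher (ERBB2 and SDC1) and 2 lower (ICAM1 and SDC4).

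Among 11 other measured proteases, listed as possible activators of HGF or MST1, 0 were called in 231BrM by limma (list median 0.03). In SKBrM3 2 of them rose, where 1.15% of genes were called higher (list median 0.01). PLAT, tissue plasminogen activator, read 8.52 and 8.61 in SKBrM3 controls and 8.98 and 8.99 with doxycycline, a rise of 0.42 (limma adjusted p = 0.0232). TMPRSS4, a membrane serine protease, read 6.73 and 6.67 against 7.12 and 7.17, a rise of 0.44 (limma adjusted p = 0.0237), though its other probe sets gave 0.04 to 0.65. TFPI2 encodes a secreted Kunitz inhibitor, whereas the Kunitz inhibitors of SPINT1 and SPINT2 are membrane-anchored. Of 8 other measured serine protease inhibitors, TFPI2 fell in SKBrM3 by 0.71 (limma adjusted p = 0.0101), from 8.47 and 8.39 to 7.67 and 7.77. Its other probe sets gave -0.60 and -0.28, and its average over the lines was -0.42 (limma adjusted p = 0.0192). In 231BrM it read 8.45 and 8.58 against 8.50 and 8.25, which overlap, and the difference of the changes did not pass (limma adjusted p = 0.269). Without 231BrM doxycycline replicate 1, beside 6.41% of genes higher and 6.14% lower in SKBrM3, the protease list had 3 called higher (F12, PLAT and TMPRSS4) and 1 lower (PLAU), and TFPI2 was again the inhibitor called.

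No gene was called by limma with doxycycline in either line among 5 measured matriptase substrates and partners, 9 genes of MET shedding and turnover, or 6 measured neighbours of MET on chromosome 7. Over all 13002 genes 21 were called in 231BrM and 446 in SKBrM3, so the absence of calls in lists this short is near the background. At an unadjusted p under 0.05 the whole comparison held 1286 and 2631 genes. The medians of these lists were 0.10, 0.06 and 0.03 in 231BrM and -0.17, 0.03 and -0.05 in SKBrM3. CAV1 and CAPZA2, which flank MET with 0 protein-coding genes between, changed by -0.01 and 0.03 in 231BrM and by -0.06 and -0.13 in SKBrM3. Without 231BrM doxycycline replicate 1, again beside 6.41% higher and 6.14% lower over all genes, LRP5 was called higher and PRSS8 lower among the substrates in SKBrM3, and TIMP2 and TIMP3 higher and PSEN2 lower among the shedding genes.

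Between the lines without doxycycline more of these genes were called, beside 19.8% of genes called higher and 19.9% lower in 231BrM. Of the signalling components 7 were higher and 3 lower in 231BrM, led by the adaptor SHC1 (1.08), the MET-restraining membrane protein LRIG1 (1.37) and the ubiquitin ligase CBL (0.90, other probe sets 0.15 to 0.84). Of the co-receptors 6 were higher and 0 lower, led by ICAM1 (1.17) and the semaphorin receptors PLXNB2 (0.88) and NRP1 (0.64), but other NRP1 probe sets gave -0.25 to 0.12. The plasminogen activators PLAT (1.41) and PLAU (0.95) were higher in 231BrM and TMPRSS6 lower (-0.41). Among shedding genes the metalloprotease inhibitors TIMP3 (1.17) and TIMP2 (0.65) and the sheddase ADAM17 (0.51, other probe sets 0.08 and 0.25) were higher, as was PSEN2 in the probe set used (0.60, others -0.21 to 0.05), and TIMP1 was lower (-0.55). Of the matriptase partners CLDN7, a tight junction protein, was higher (0.79), and of the other inhibitors SERPINE2 (0.28). Of the chromosome 7 neighbours CAV2 (0.63), CAV1 (0.55) and MDFIC (1.43) were higher in 231BrM and the other 3 were not called. These had limma adjusted p-values from 3.41e-06 (PLAT) to 0.0323 (SERPINE2).

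**Figure D4:**
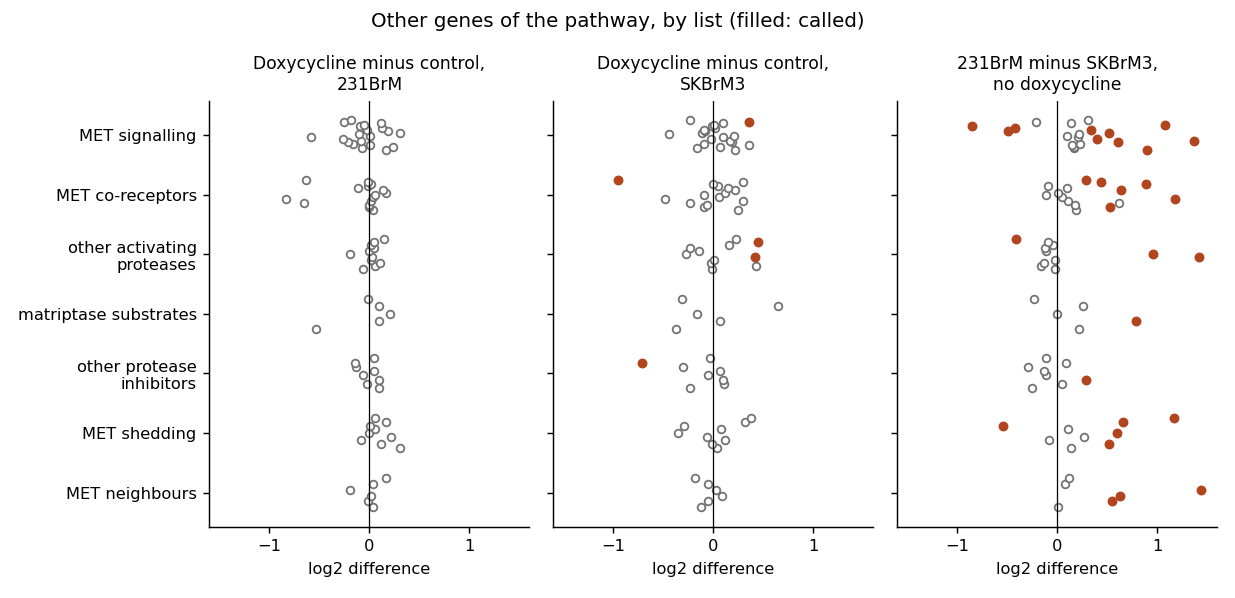
Log2 difference (horizontal axis) of each measured gene in 7 lists around MET (vertical axis), for doxycycline in 231BrM, doxycycline in SKBrM3 and the lines without doxycycline; each point is 1 gene and filled points are called by limma at an adjusted p under 0.05. No point is filled for 231BrM with doxycycline, 5 are for SKBrM3, and the comparison of the lines holds most of the filled points.

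Markers of both lines also differed between the control groups, as SPINT2 did. Of 15 measured MDA-MB-231 markers 8 were higher and 0 lower in 231BrM, with CDH11 (3.69), NNMT (3.45) and SPARC (2.73) first, and other CDH11 probe sets at 0.03 and 1.75. The other 7, VIM, ZEB1, AXL, MSN, TGFBI, CD274 and ANKRD1, were not called. Among them ANKRD1 and TGFBI had higher means in SKBrM3 controls (9.80 and 8.37) than in 231BrM controls (8.73 and 8.13). Of 16 measured SK-BR-3 markers 7 were higher and 4 lower in 231BrM, with KRT19 (2.59), KRT7 (1.90) and TRPS1 (0.75) among the higher. The 4 lower were FOXA1 (-1.37), MIEN1 (-0.73), PGAP3 (-0.31) and GRHL2 (-0.29). Of 12 measured epithelial genes ESRP2, CLDN7 and OCLN were higher in 231BrM and GRHL2 lower. The part of cell state in the SPINT2 difference was not tested.

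The genes whose values over the 8 arrays followed each called member most closely were picked by Pearson's r on log2 values, which ignores the size of a change. For MET these were MEX3B (r = 0.968), PFN2 (r = 0.962), which encodes an actin-binding profilin, and GSKIP (r = 0.961). MEX3B read 4.39 and 4.43 in 231BrM controls against 4.03 and 4.02, and 4.43 and 4.56 in SKBrM3 controls against 4.05 and 4.02, so its doxycycline values lay under the filter level. These genes were picked for following MET, which changes with doxycycline, so their own changes with it are a description and no test. PFN2 changed by -0.48 in 231BrM and -0.66 in SKBrM3, and GSKIP by -0.61 and -0.77, against -3.76 and -3.50 for MET. For SPINT2 they were DUSP1 (r = 0.999), a phosphatase of MAP kinases, BEX5 (r = 0.999) and GGPS1 (r = 0.999), an enzyme of isoprenoid synthesis, and these r values mainly restate the gap between the lines. DUSP1 was 1.61 higher in 231BrM, BEX5 3.84 and GGPS1 1.58, although the other GGPS1 probe sets gave 0.17 and 0.23.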

How the data were processed

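The deposited table holds log2 values per probe set and array, made by the authors with RMA per the submitters' processing notes. The RMA version, genome build and probe definitions were not given in the sources used here. Scanner files were not analysed here. The quantile step that RMA normally includes hides changes of total RNA per cell. Probe sets naming 1 gene (45253, against 1327 with several and 2713 unnamed besides 93 controls) took symbols by gene ID from RefSeq (GRCh38.p14, names only). For each gene the probe set with the highest mean was used. Genes or probe sets above 4.41 on at least 2 arrays were fitted with limma 3.58.1 (R 4.3.3) as 4 group means, and p-values are two-sided and adjusted by Benjamini-Hochberg over all 13002 genes or 28860 probe sets. Precision is limited by the number of arrays: across genes the standard error of the change with doxycycline within a line had a median of 0.0968. Nothing in the labels says that replicates were separate cultures, and p-values then reflect only how these arrays vary, which may be technical. The steps were tested on simulated data. Levels of different probe sets were not tested against each other, though the same filter level and a ranking by mean were applied to them.

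The members and lists were chosen with earlier results of these data known. Named are all members, per list and comparison up to 3 called genes with the smallest p, line markers, and the 3 genes most correlated with each called member. CDH1, ALB, CAPZA2 and genes that complete short counts were chosen after their values were seen. Alternatives were the filter, the probe set rule, cyclic loess, the variance prior, array weights, a replicate block, subsets of arrays and leaving out each array. The fit of all probe sets with no filter, and the list counts without 231BrM doxycycline replicate 1, were chosen after seeing the data.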

Additional observations from a re-analysis of the deposited data

How the results depend on the processing

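The falls of MET with doxycycline in both lines, and the higher SPINT2 in 231BrM, kept their direction and their call under every alternative run. MET ran from -4.01 to -1.71 in 231BrM and from -3.52 to -1.88 in SKBrM3, and SPINT2 from 1.35 to 1.52. The MET falls were smallest with the mean of all probe sets. That mean includes the MET pair that stayed between 3.48 and 4.15 on all arrays. The line difference of MET without doxycycline turned to -0.22 with the mean of all probe sets. Of 561 alternative values for the 7 measured members, 559 stayed on their side of the threshold, 1 reversed (that of MET) and 1 newly passed (HPN, 0.22 on average over the lines without 231BrM doxycycline replicate 2). Of the 559, 36 changed sign, all of them uncalled, so the direction of a change near 0 is not fixed by these data. Among them the unequal response of MET turned from 0.26 to -0.17 with the mean of all probe sets. A filter at the median of all values left out MST1 and ST14. The mean of all probe sets put MST1R and MST1 under the filter, so neither has a value in that setting.

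Counts of called genes over the whole array moved more. For doxycycline in 231BrM (21) they were 42 with cyclic loess, 45 with a trended prior, 11 with array weights and 1 with the 4 arrays alone. For SKBrM3 (446) they were 1605 with array weights and 1248 with its 4 arrays alone, and for the average (395) 621 with cyclic loess. For the difference of the effects (3) they were 13 with a trended prior and 0 over probe sets, and for the lines without doxycycline (5167) 9638 over probe sets. Leaving out single arrays gave 3 to 1650, 52 to 1631, 98 to 2887, 0 to 473 and 3323 to 6575 in the same order, and a group left with 1 array takes its spread from the others.

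Whether replicate numbers pair the arrays was not settled, and correlations of same-numbered deviations ran from -0.11 to 0.24. Between control and doxycycline arrays of a line they were 0.24 in 231BrM and -0.01 in SKBrM3. The 231BrM value includes the array with raised 3' signal, and 2 arrays per group cannot exclude pairing. With the replicate block 16, 389, 320, 3 and 5113 genes were called, and no call of a member changed. Detection of the 14 member probe sets under the filter is limited by low signal.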
